A study of Mus musculus with 12 samples.

Results

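Pik3ip1 encodes TrIP, a transmembrane protein that restrains phosphoinositide 3-kinase (PI3K), and it is the gene deleted in the knockout mice of this study. It is described here together with 5 other genes of the same pathway: the lipid phosphatases Inpp5d and Inpp4b, the AKT phosphatases Phlpp1 and Phlpp2, and Pik3ap1, an adaptor that brings PI3K to receptors. The genes were chosen by symbol, and all 6 were found once each among the 26962 genes of the table. All 6 passed the filter on low values.

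RNA was sequenced from sorted CD8+ T cells positive for the Rpl18 tetramer, which stains T cells whose receptor fits 1 peptide displayed on MHC. They were taken from the tumor and the tumor-draining lymph node (TDLN) of mice carrying MC38, a mouse colon carcinoma line, on day 10 after injection. The mice were wild type (WT) or had a CD8-specific knockout (KO) of TrIP, and all of them carried the tumor. Each pairing of genotype and tissue made 1 of 4 groups and held 3 libraries. Those of WT are numbered 1, 3 and 4, and those of KO 1, 2 and 3. The sources used here do not give the Cre driver, the deleted exons, the strain, the age or any pooling of animals. They also do not say that libraries came from separate animals, so p-values measure only the spread between libraries, which may be technical in part. The X-inactivation transcript Xist, given below, set the library numbered 3 apart from the others in each group.

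PI3K at the plasma membrane makes a lipid messenger that recruits the kinase AKT, which feeds growth through mTOR and keeps the transcription factor FOXO1 out of the nucleus. T cells hold this pathway in check at several steps: TrIP acts on PI3K itself, lipid phosphatases remove the messenger or its products, and the PHLPP phosphatases remove an activating phosphate from AKT. In T cells, low PI3K activity lets FOXO1 maintain homing and quiescence genes.

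An estimated 18.3 to 36.9 M reads fell in genes per library, and column totals ran from 22113970 to 26490590. Markers of CD8 T cells, 12 of 12 in the table, summed to 0.427% to 0.731% of all values. Of these, 0 were absent from any group. Of the CD4 T-cell markers, Cd4 stayed at or below 23.6 normalized counts. Foxp3, Zbtb7b and Cd40lg reached 124.1, 237.3 and 351.3, all in tumor. Macrophage and monocyte markers (15 genes) summed to 0.0404% to 0.194% in tumor and 0.000851% to 0.00258% in TDLN. B-cell markers (12 genes) summed to 0.023% to 0.0463% in TDLN and 0.0032% to 0.01% in tumor. The markers of NK cells reached 0.0104%, in tumor. Klri2 and Klra4 stood highest among them there, at up to 1829.8 and 1579 normalized counts, and Ncr1 did not exceed 4.1. Markers of tumor epithelium and stroma reached 0.126% in WT tumor replicate 4, against 0.0106% to 0.0373% in the other tumor libraries. In that library Col3a1, Col1a2 and Col1a1 stood at 15192.6, 9415.6 and 7681.6, and Krt8 and Krt18 at 12.7 and 0. In every group the library numbered 3 held the X-inactivation transcript Xist, at 2485.0 to 3845.1 normalized counts, and no other library held more than 2.5. The Y-linked gene Ddx3y was at 0 in both TDLN libraries numbered 3 and at 909.2 and 1330.9 in the WT and KO tumor libraries numbered 3. In WT TDLN replicate 4 it stood at 282.8, against 2165.1 to 3590.7 in the TDLN libraries numbered 1 or 2. WT tumor replicate 3 stood apart on the second principal component.

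Promoter sequence is shown for Pik3ip1, the gene that fell in tumor, and for Inpp5d and Pik3ap1, which rose there. Phlpp1, which rose as well, is not shown, and its window held neither of the motifs marked below. The bases lie upstream of the start that RefSeq gives on build GRCm38.p6, written 5′ to 3′ on the strand of the gene. For Pik3ip1, whose window lies in an exon of the GENCODE annotation, 30 bases are shown from chr11:3330569-3330598 on the plus strand, with capitals on a match to the NFAT-type letters GGAAAA. For Inpp5d (chr1:87620062-87620311, plus strand) and Pik3ap1 (chr19:41385103-41385352, minus strand), the 250 bases before the start are shown, with capitals on a match to the ETS-type letters GGAAGT on either strand.
Pik3ip1: actcacactggtGGAAAAggaagaaaagcc
Inpp5d: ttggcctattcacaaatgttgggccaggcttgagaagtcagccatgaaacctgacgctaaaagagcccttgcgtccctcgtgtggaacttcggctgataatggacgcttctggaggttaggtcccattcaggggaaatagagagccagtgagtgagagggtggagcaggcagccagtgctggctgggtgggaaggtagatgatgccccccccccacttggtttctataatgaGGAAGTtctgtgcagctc
Pik3ap1: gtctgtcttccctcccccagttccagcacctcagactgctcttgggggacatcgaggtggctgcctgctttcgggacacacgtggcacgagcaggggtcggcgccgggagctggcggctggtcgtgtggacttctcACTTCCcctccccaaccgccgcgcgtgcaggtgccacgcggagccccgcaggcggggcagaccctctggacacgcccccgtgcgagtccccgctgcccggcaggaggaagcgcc

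Windows of 250 bases were available for all 6 genes, and 6 motifs were searched in them on both strands. ETS-type letters were in 2 of the 6 windows, starting 18 bases before the start of Inpp5d and 114 before that of Pik3ap1, against 19.7% of all 32851 windows. NFAT-type letters were in 1, starting 150 bases before the start of Pik3ip1, against 20.4%. The KLF-type letters CACCC were in 5 of 6, against 52%. The FOXO letters GTAAACA (3.17% of all windows), the AP-1 letters TGANTCA (6.75%) and the RUNX letters TGTGGT (14%) were in none of the 6 windows. Matches did not overlap each other in these windows. G and C made up 53.6% of the Pik3ip1 window and 54.4% of that of Inpp5d, but 66% to 72.4% of the other 4.

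Pik3ip1 (ENSMUSG00000034614, chromosome 11) comes first because it checks the labels. In WT TDLN it stood at 607 normalized counts in replicate 1, 1095 in replicate 3 and 834.2 in replicate 4. In KO TDLN it stood at 854.2, 1009 and 1573 in replicates 1, 2 and 3. The groups overlapped, and the highest of the 6 values belonged to a library labelled KO. In WT tumor the values were 179.1, 118.8 and 137.7 in replicates 1, 3 and 4, and in KO tumor 173.3, 95.16 and 55.45 in replicates 1, 2 and 3. The lowest 2 tumor values were both KO, but KO replicate 1 lay between the WT libraries. These tumor values rest on an estimated 40 to 190 reads per library. Between genotypes limma gave a log2 difference, KO minus WT, of 0.42 in TDLN (SE 0.35, 95% interval -0.33 to 1.17, adjusted p = 1) and -0.44 in tumor (SE 0.35, interval -1.19 to 0.31, adjusted p = 0.814). With 1 library left out, these values ranged from 0.17 to 0.62 in TDLN and, in tumor, from -0.78 without KO replicate 1 to -0.13 without KO replicate 3, and none passed. The transcript level therefore did not separate the labels, and a value over the whole gene cannot show the loss of single exons, so KO names the label of a library in what follows.

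**Figure D1:**
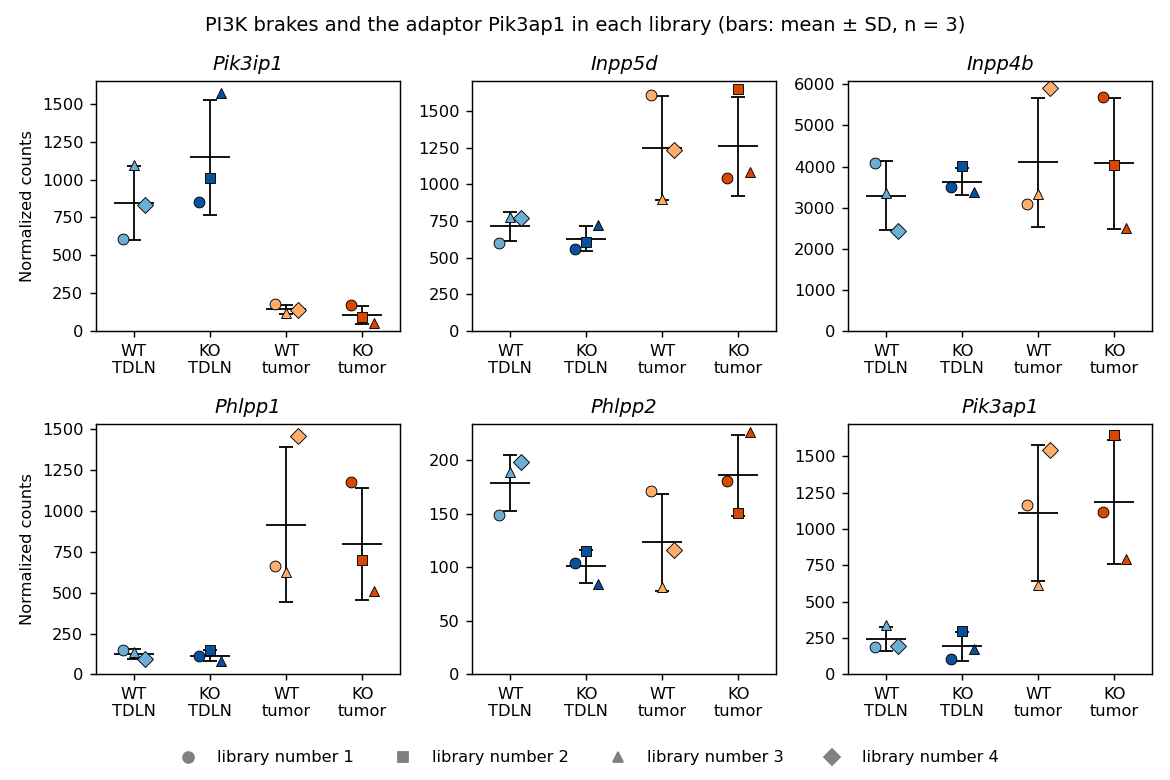
Normalized counts (y axis, from 0) of the 6 genes in the 12 libraries by group. Points are libraries with a symbol for each library number, and bars show mean ± SD (n = 3). Pik3ip1 lies at 607 or above in TDLN and at 179.1 or below in tumor. Phlpp1 and Pik3ap1 show the opposite order, and Inpp4b overlaps between tissues.

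Between tissues, Pik3ip1 was lower in every tumor library than in any TDLN library of either genotype. In WT the mean was 845.5 ± 244.3 normalized counts in TDLN and 145.2 ± 30.8 in tumor, and in KO 1146 ± 378.3 and 108 ± 60.0 (SD, n = 3). The log2 difference, tumor minus TDLN, was -2.33 in WT (SE 0.35, 95% interval -3.08 to -1.58, limma adjusted p = 0.00053) and -3.19 in KO (SE 0.35, interval -3.94 to -2.44, adjusted p = 4.28e-05). Before logs were taken, 24.9 normalized counts were added to every value, which shrinks the differences of weakly expressed genes. Library 3 held the highest Pik3ip1 value of TDLN and the lowest of tumor in both genotypes. Without the libraries numbered 3 the differences were -2.02 and -2.63, still past the threshold (adjusted p = 0.0044 and 0.00146).

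B-cell transcripts were also lower in tumor, with 7 of 10 tested B-cell markers called lower in WT and 9 of 10 in KO. Their summed level in TDLN was 7638.9, 6628.8 and 5438.7 normalized counts in WT replicates 1, 3 and 4 and 7144.1, 6835.3 and 11357.9 in KO replicates 1, 2 and 3. KO TDLN replicate 3 was highest for both the B-cell markers and Pik3ip1, whereas WT TDLN replicate 1 had the second highest B-cell sum and the lowest Pik3ip1 value. Ighm made up most of these sums, at 5744.6 in WT TDLN replicate 1 and 3653.5 to 6001.1 across TDLN. Without it the order can differ: Cd79b was lowest of TDLN in WT replicate 1, at 463.7. Ighd there, at 735.5, was above the other WT TDLN libraries (269 and 512.2). Between genotypes in TDLN, 10 of 10 B-cell markers had a log2 difference above 0, with a median of 0.83, where Pik3ip1 had 0.42. Of these markers 0 were called. The part of B-cell RNA in either Pik3ip1 difference was not tested. In bulk RNA, fewer cells of a type and less RNA per cell cannot be told apart.

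**Figure D2:**
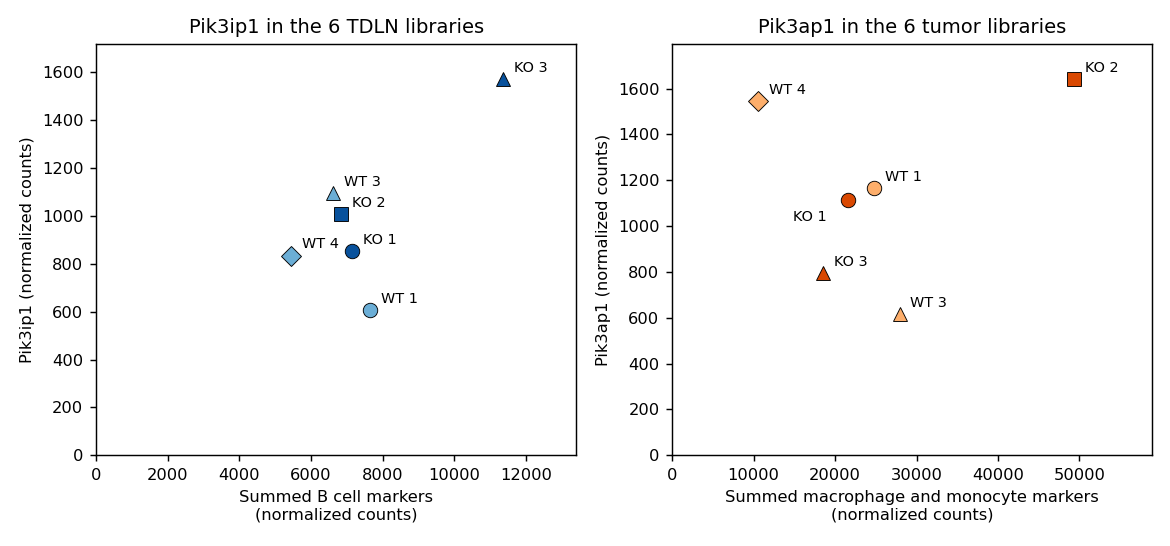
Left, Pik3ip1 (y axis) against the summed B-cell markers (x axis) in the 6 TDLN libraries. Right, Pik3ap1 against the summed macrophage and monocyte markers in the 6 tumor libraries, all in normalized counts. Labels give genotype and library number. KO 3 is highest on both axes at left, where Ighm makes up most of each marker sum. At right WT 4 combines the lowest marker sum, 10546.8, with the second highest Pik3ap1 value, 1545.

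Of the 6 genes, 3 rose and 1 fell in tumor against TDLN in WT, and the counts were the same in KO. Over all 16065 genes tested, limma called 15.9% higher and 10.9% lower in WT, and 18.1% higher and 12.6% lower in KO. The 1752 lower calls of WT became 1275, 1218 and 1081 without WT TDLN replicates 1, 3 and 4. Without WT tumor replicates 1, 3 and 4 they became 1638, 2130 and 1168. The 2017 of KO became 1030, 1201 and 1424 without KO TDLN replicates 1, 2 and 3. Without KO tumor replicates 1, 2 and 3 they became 1139, 1284 and 2113. A smaller number of libraries by itself lowers such counts. Rescaling every library to a common column total moved the median of all genes in WT from 0.05 to -0.11 and the higher share of the calls from 59.4% to 45.5%, and quantile normalization moved them to -0.09 and 46.9%. In KO a common column total moved the median from 0.05 to -0.02 and the higher share from 59% to 52.4%. Quantile normalization moved them there to -0.12 and 45.5%. The median log2 difference over the 6 genes was 0.52 in WT and 0.84 in KO, beside 0.05 over all genes in each. The genes that rose were Inpp5d, Phlpp1 and Pik3ap1, in both genotypes, and Pik3ip1 fell. Their directions held under both scalings. The WT and KO comparisons are made on separate libraries but in 1 model with a shared spread.

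Inpp5d (ENSMUSG00000026288, chromosome 1) encodes SHIP1, the phosphatase that removes a phosphate from the PI3K lipid product and is found across blood cells. It stood at 601.1, 776 and 769.6 normalized counts in WT TDLN replicates 1, 3 and 4, and at 560.1, 605.6 and 725.9 in KO TDLN replicates 1, 2 and 3. In tumor it stood at 1606, 902 and 1235 in WT and at 1040, 1648 and 1085 in KO. The tissues did not overlap in either genotype, while the genotypes overlapped in both tissues. The log2 difference, tumor minus TDLN, was 0.75 in WT (SE 0.24, 95% interval 0.22 to 1.28, limma adjusted p = 0.0385) and 0.95 in KO (SE 0.24, interval 0.41 to 1.48, adjusted p = 0.0122). The WT call is marginal: it was lost under 10 of 17 alternative settings, where adjusted p reached 0.135, among them rescaling to a common column total (0.58, adjusted p = 0.0995) and the fit with a replicate block (0.75, adjusted p = 0.0691). Others were the fits without WT TDLN replicate 1, 3 or 4 (adjusted p = 0.124, 0.062 and 0.0709) or WT tumor replicate 1 or 4 (0.135 and 0.0899). The KO call was lost without KO TDLN replicate 1 (adjusted p = 0.0533) and without replicate 2 of KO tumor (0.0555).

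Phlpp1 (ENSMUSG00000044340, chromosome 1), an AKT phosphatase, had the highest log2 rise of the 6 in WT and KO, in KO level with Pik3ap1. Its level was 150.5, 134.1 and 91.93 normalized counts in WT TDLN and 113.7, 146.7 and 80.65 in KO TDLN, in the same order of replicates. In WT tumor it was 661.5, 624.5 and 1462, and in KO tumor 1180, 701.6 and 511.6. Every tumor library was above every TDLN library. The log2 difference between the tissues was 2.56 in WT (SE 0.37, limma adjusted p = 0.000437) and 2.52 in KO (SE 0.37, adjusted p = 0.000425), a rise of 5.88-fold and 5.72-fold on the scale with the pseudocount. This call held under all 17 alternative settings in each genotype.

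Phlpp2 (ENSMUSG00000031732, chromosome 8), the paralog of Phlpp1, did not follow it. It stood at 148.5, 188.5 and 197.9 normalized counts in WT TDLN and at 103.7, 115 and 84.5 in KO TDLN. In tumor the values were 171.1, 81.74 and 116.5 in WT and 180.6, 151 and 226 in KO. All KO TDLN values were below all WT TDLN values, and KO tumor was above KO TDLN without overlap, while the tumor groups overlapped each other. Neither tissue difference passed the threshold, at -0.49 in WT (SE 0.27, 95% interval -1.09 to 0.10, limma adjusted p = 0.201) and 0.73 in KO (SE 0.27, interval 0.14 to 1.33, adjusted p = 0.059). The KO difference passed without an intensity trend (adjusted p = 0.0445) and with array quality weights (adjusted p = 0.0424).

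Pik3ap1 (ENSMUSG00000025017, chromosome 19) encodes BCAP, which links receptors to PI3K in B cells and is also found in macrophages. It stood at 189.9, 340.5 and 197 normalized counts in WT TDLN and at 105.2, 300 and 175.7 in KO TDLN. In tumor it stood at 1165, 616.6 and 1545 in WT and at 1116, 1642 and 795.8 in KO. The lowest tumor value was above the highest TDLN value. The log2 difference was 2.04 in WT (SE 0.41, limma adjusted p = 0.00336) and 2.51 in KO (SE 0.41, adjusted p = 0.000825), which is 4.1-fold and 5.69-fold. The macrophage and monocyte markers rose too, with 13 of 14 tested called higher in WT and 14 of 14 in KO. Their sum in tumor was 24798, 27924.8 and 10546.8 normalized counts in WT replicates 1, 3 and 4 and 21539.1, 49326.8 and 18494.4 in KO replicates 1, 2 and 3. The library with the lowest sum, WT replicate 4, had the second highest Pik3ap1 value, and the library with the second highest sum, WT replicate 3, had the lowest. KO replicate 2 was highest for both, and for Inpp5d. In TDLN C1qa and Csf1r did not exceed 0.9 and 4.4, and Lyz2 and Itgam of the same list reached 50.4 and 63.9. Cd68 stood at 164.8 to 496.5 in TDLN and at 533.8 to 973.1 in tumor. The part of macrophage RNA in the rise of Pik3ap1 or Inpp5d between tissues was not tested.

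Inpp4b (ENSMUSG00000037940, chromosome 8), the phosphatase that acts on a breakdown product of the PI3K lipid, had the highest normalized counts of the 6 and the smallest differences between tissues. Its values were 4099, 3353 and 2437 normalized counts in WT TDLN and 3500, 4005 and 3389 in KO TDLN. In tumor they were 3086, 3330 and 5907 in WT and 5692, 4035 and 2508 in KO. All 4 groups overlapped, and the tumor groups were spread more widely than the TDLN groups. The log2 difference, tumor minus TDLN, was 0.28 in WT (95% interval -0.39 to 0.96, limma adjusted p = 0.527) and 0.09 in KO (interval -0.58 to 0.76, adjusted p = 0.846), so a change of the size seen in Phlpp1 lies outside both intervals.

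**Figure D3:**
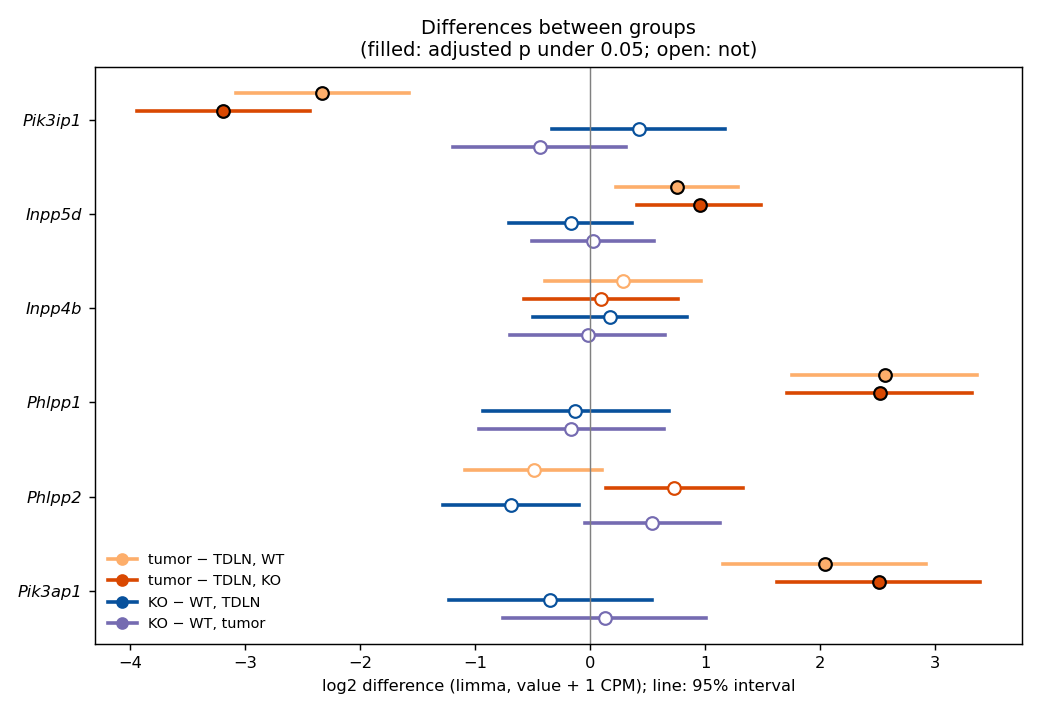
Log2 differences (x axis) of the 6 genes from limma, with 95% intervals as lines. Colors mark the 4 comparisons, and filled points have an adjusted p under 0.05. Pik3ip1 lies left of 0 and Phlpp1, Pik3ap1 and Inpp5d right of 0 between tissues, and no genotype difference is filled.

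Per kilobase of exon, using merged exon lengths of a GENCODE annotation that is not the one behind the table, the order of the genes changed between tissues. In WT TDLN the order from low to high was Phlpp1 at 18.6, Phlpp2 at 21.1, Pik3ap1 at 43.5, Inpp5d at 94.1, Pik3ip1 at 198 and Inpp4b at 252 normalized counts per kilobase (means of 3 libraries). The ranges of Phlpp1 and Phlpp2 overlapped, as did those of Pik3ip1 and Inpp4b. In WT tumor it was Phlpp2 at 14.6, Pik3ip1 at 34, Phlpp1 at 136, Inpp5d at 164, Pik3ap1 at 199 and Inpp4b at 314. The ranges of Phlpp1, Inpp5d and Pik3ap1 overlapped there, as did those of Pik3ap1 and Inpp4b, and Pik3ip1, between 27.8 and 41.9, stood clear of Phlpp2 below and Phlpp1 above. In KO TDLN, Phlpp2 was lowest at 12 and Inpp4b highest at 278, next to Pik3ip1 at 268, and in KO tumor Phlpp2 at 22 and Pik3ip1 at 25.3 overlapped, below Phlpp1 at 118.

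Whether the genotypes differ in these brakes was asked in each tissue. No gene of the 6 passed in tumor or in TDLN, where limma called 0% and 0% of all genes, and 1004 and 123 of all 16065 genes had an unadjusted p under 0.05. If no gene differed and p-values were evenly spread, a share of 0.05 would fall there, and the 123 of TDLN lie far under it. The SE in TDLN comes from a spread shared by all 4 groups, so unadjusted p-values in TDLN may be too high. The reason was not tested. In tumor 0 of the 6 had an unadjusted p under 0.05 and the groups overlapped for all 6, against 7.48% of all genes without overlap. The log2 difference in tumor, KO minus WT, was 0.02 for Inpp5d, -0.02 for Inpp4b, -0.17 for Phlpp1, 0.54 for Phlpp2 and 0.13 for Pik3ap1, with adjusted p from 0.789 to 0.991. The 95% interval of Inpp5d ran from -0.51 to 0.55 and that of Pik3ap1 from -0.76 to 1.01. The KO tumor libraries also held a smaller share of CD8 T-cell markers, 0.45% to 0.478%, with WT tumor at 0.568% to 0.687%. Of the 12 CD8 markers 1 lay above 0 (median log2 difference -0.34). All 14 tested macrophage and monocyte markers did so (median 0.47), and 0 of either list passed. What this skew adds to the values of Inpp5d or Pik3ap1 was not tested.

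In TDLN, Phlpp2 was the 1 gene of the 6 whose genotypes did not overlap, which held for 6.35% of all genes. The WT mean was 178.3 ± 26.2 normalized counts and the KO mean 101 ± 15.4 (SD, n = 3). The log2 difference was -0.69 (SE 0.27, 95% interval -1.28 to -0.10), with unadjusted p = 0.0264 and limma adjusted p = 1, so it did not pass. By unadjusted p it ranked 60 among the 16065 genes. The other 5 lay between -0.35 for Pik3ap1 and 0.42 for Pik3ip1, each with adjusted p = 1.

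The interaction, which takes the KO minus WT value of TDLN from that of tumor, passed for 0% of all genes, with 465 at an unadjusted p under 0.05. Phlpp2 had a value of 1.23 (SE 0.39, 95% interval 0.39 to 2.07, unadjusted p = 0.00769, limma adjusted p = 1) and ranked 49 of 16065. It was 0.74 without the libraries numbered 3. For Pik3ip1 it was -0.86 (SE 0.49, interval -1.92 to 0.21, adjusted p = 1). The other 4 lay between -0.19 for Inpp4b and 0.47 for Pik3ap1.

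The tumor libraries differed widely among themselves within a genotype, and Inpp4b and Phlpp1 did so together. WT replicate 4 and KO replicate 1 were highest for both genes and KO replicate 3 lowest for both. WT replicate 4 was also the library with the highest share of epithelium and stroma markers (0.126%). Across the 6 tumor libraries Pearson's r of the log2 values was 0.96 (exact permutation p = 0.00556, adjusted p = 0.167) and Spearman's rho 0.94 (exact permutation p = 0.0167, adjusted p = 0.5), adjusted over the 30 relations of 15 pairs in 2 tissues. With the 2 libraries farthest from the median of Inpp4b left out, r was 0.91. In TDLN the same pair had r = 0.69 (exact permutation p = 0.144, adjusted p = 0.75) and rho = 0.71 (p = 0.136, adjusted p = 0.75). Inpp5d and Pik3ap1 in tumor had r = 0.76 (exact permutation p = 0.0639, adjusted p = 0.75) and rho = 0.89 (p = 0.0333, adjusted p = 0.5). Their r was 0.88 without the 2 libraries farthest from the median of Inpp5d. These pairs were chosen after their values were seen, and neither passes adjustment.

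**Figure D4:**
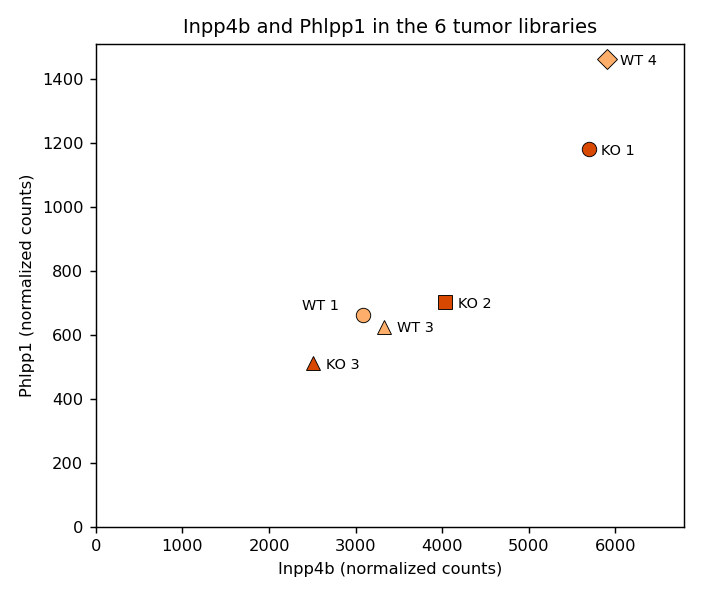
Phlpp1 (y axis) against Inpp4b (x axis) in the 6 tumor libraries, in normalized counts from 0. Labels give genotype and library number. WT 4 and KO 1 are highest on both axes and KO 3 is lowest on both.

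For each of the 6 genes, the 3 genes with the most similar pattern were taken by Pearson's r of log2 values over the 12 libraries, whose values are split by tissue. For Pik3ip1 these were Cd79b (r = 0.987), a chain of the B-cell receptor, Zfp39 (0.974) and Il16 (0.974), among 131 genes with r over 0.9. Cd79b stood at 463.7 to 1260.7 normalized counts in TDLN and 27.7 to 93.8 in tumor. Phlpp1 was most like Gdi2 (0.99), Kdm2b (0.984) and Klhl24 (0.984), among 997 genes over 0.9. Pik3ap1 was nearest to Arih2 (0.977), Cited2 (0.974) and Tmbim6 (0.973). The genes nearest to Inpp5d were Slamf8 (0.952), Ltbp4 (0.952) and Entpd1 (0.949), the last of which encodes the ectoenzyme CD39. Inpp4b, nearest to Atg13 (0.921), Cwf19l2 (0.898) and Gm26707 (0.89), had 1 gene over 0.9. Phlpp2, nearest to Poldip2 (0.88), Amigo1 (0.874) and Iqgap3 (0.868), had 0.

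The rest of the pathway was described by 6 lists, compared between tumor and TDLN. Among other brakes on AKT and mTOR, 3 of 14 tested genes were called higher and 1 lower in WT, against 6 and 2 in KO. For this and the following lists, the shares of all genes called in WT were 15.9% higher and 10.9% lower. In KO these shares were 18.1% and 12.6%. Across the list, the median log2 difference was 0.08 in WT and 0.29 in KO, beside 0.05 over all genes. Cblb, a ubiquitin ligase that restrains T-cell activation, had a WT mean of 687.4 ± 323 normalized counts in TDLN and 4514 ± 516 in tumor, and a KO mean of 690.9 ± 70.9 and 4098 ± 948 (SD, n = 3). It rose by 2.78 on the log2 scale in WT (SE 0.30, limma adjusted p = 5.9e-05) and by 2.50 in KO (SE 0.30, adjusted p = 0.000105). Trib1 (1.31 and 1.40) and Trib3 (1.27 and 2.47), pseudokinases of the Tribbles family, rose in WT and KO. The WT call of Trib1 was lost with a common column total (limma adjusted p = 0.0541) and with quantile normalization (0.0553), and that of Trib3 with the latter (0.80, adjusted p = 0.141). Dok2, an adaptor that dampens receptor signaling, fell by 1.43 on the log2 scale in WT, beside -1.25 in KO. Trib2 fell by 1.36 in KO, beside -0.86 in WT, which did not pass. With a common column total, the WT count of this list was 2 higher and 4 lower with a median of -0.09. With quantile normalization it was 1 higher and 1 lower with a median of -0.03.

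Of the other phosphoinositide phosphatases, 1 of 10 tested rose in each genotype. That gene was Inppl1, which encodes SHIP2, the paralog of Inpp5d. It went from 10.6 ± 11 to 56.1 ± 29.1 normalized counts in WT (SD, n = 3), a log2 rise of 1.17 (limma adjusted p = 0.0241). The KO means were 7.86 ± 5.97 and 100 ± 12.6, a rise of 1.94 (adjusted p = 0.00135). The list medians were 0.33 and 0.29, and with quantile normalization 0 genes were called higher and 1 lower in WT, where Inppl1 stood at 0.70 (adjusted p = 0.14).

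Among PI3K subunits, 3 of 8 tested rose in each genotype and 0 fell, with list medians of 0.59 and 0.56. The genes that rose were the catalytic subunits Pik3cb (log2 1.39 in WT and 2.39 in KO) and Pik3ca (0.78 and 0.85) and the regulatory subunit Pik3r1 (0.80 and 1.42). With a common column total the WT count was 1 higher and 1 lower, and the WT calls of Pik3ca (limma adjusted p = 0.0825) and Pik3r1 (0.086) were lost. Of 12 AKT and mTOR kinases and their partners, 3 rose in WT and 4 in KO and 0 fell, with medians of 0.14 and 0.19, the first at -0.03 with a common column total. Rptor and Rictor, which define the mTOR complexes, rose by 1.13 and 0.82 in WT and by 1.11 and 0.99 in KO. Rheb, an activator of mTOR, rose by 0.82 and 0.53, and Sgk1, a kinase related to AKT, was called in KO at 1.02.

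Adaptors and receptors that feed PI3K moved both ways, with 4 of 10 tested up and 1 down in WT and 3 up and 2 down in KO (medians 0.10 and 0.42). In WT a common column total gave 3 up and 1 down with a median of -0.03, and quantile normalization gave 2 up and 1 down with a median of -0.01. Irs2, an adaptor of insulin and cytokine receptors, rose from 10.2 ± 8.52 to 391.5 ± 147 normalized counts in WT, and its KO means were 20.1 ± 27.1 in TDLN and 587.1 ± 313 in tumor (SD, n = 3). Icos, a costimulatory receptor that recruits PI3K, rose by 1.5 in WT and 1.36 in KO on the log2 scale. Gab2 rose from 3.5 or less in each TDLN library to 22.7 or more in each tumor library, and its WT call was lost with quantile normalization (0.85, limma adjusted p = 0.108). Trat1, an adaptor of the T-cell receptor complex, had log2 differences of -3.30 in WT and -3.24 in KO, and Bank1, a B-cell adaptor, fell by 2.18 in KO. Macrophage markers rose and B-cell markers fell over the same contrast, as given above. The part of such RNA in these differences, and in those of the lists before, was not tested.

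Of the FOXO1-dependent homing and quiescence genes, 4 of 8 tested were called lower in tumor in WT, 3 in KO and 0 higher (medians -1.20 and -1.46). The rest did not pass, and 3 of the 8 in WT and 2 in KO had values above 0. Tcf7, which encodes a transcription factor of memory-like cells, had log2 differences of -3.31 in WT and -2.82 in KO, and Klf2, a factor of quiescence and egress, of -2.14 and -1.94. S1pr1, the egress receptor, fell by 3.16 in WT and did not pass in KO, at -2.01 (limma adjusted p = 0.0526). In the genotype comparisons and the interaction, 0 genes of these 6 lists passed.

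**Figure D5:**
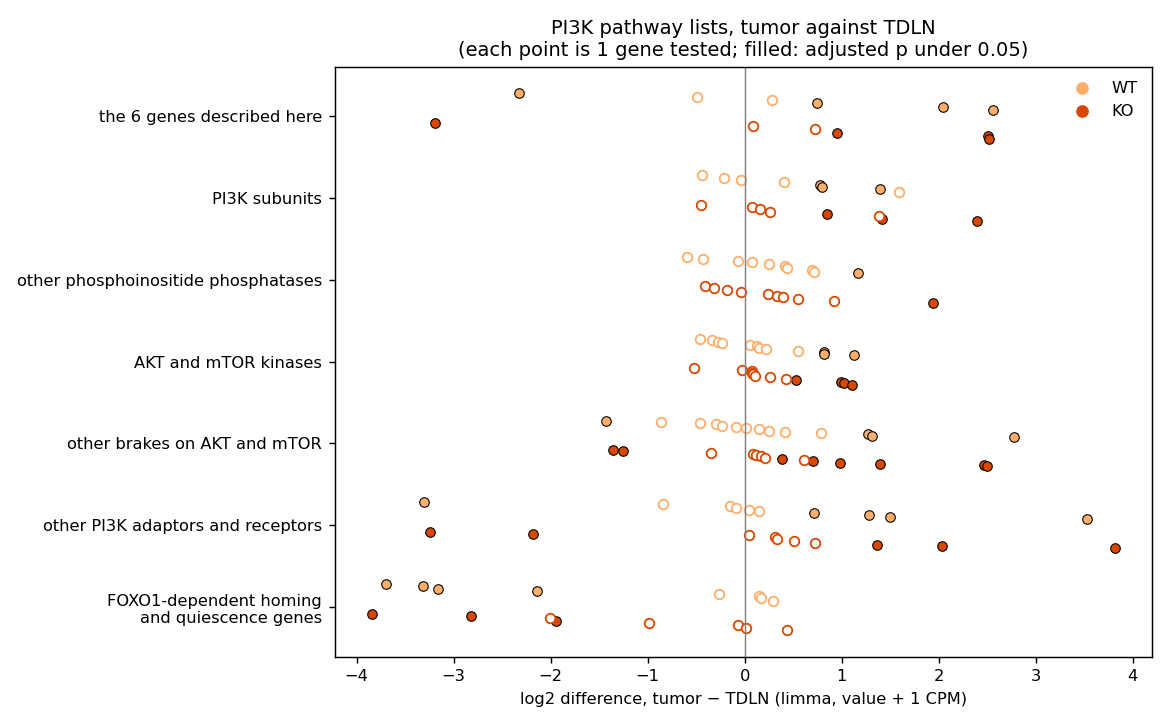
Log2 difference, tumor minus TDLN (x axis), of each gene tested in the 6 pathway lists and of the 6 genes described here, in WT and KO. Filled points have an adjusted p under 0.05. The adaptor row holds called genes on both sides of 0, from Trat1 at left to Irs2 at right, and the FOXO1-dependent row holds called genes to the left of 0 and none to the right.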

How the data were processed

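The deposited table holds 1 column per library with a signal value per gene, given by the authors as normalized counts exported from Partek, per the file headers. Between 87.0% and 89.6% of values under 50 reads were whole multiples, within 0.01 reads, of the lowest common step of their library, taken as 1 read; the rest were not, so no count model was used. The submitters' processing notes name GRCm38 and GRCm39 without roles, and no source used here names an aligner. The annotation that gave exon lengths (GENCODE, GRCm38) shares 26520 gene IDs with the table, 34 of them in the same version, so it is another release. Libraries were stranded and poly(A)-selected, per the labels' protocols.

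The 16065 genes averaging 1 CPM or more were tested, after adding 1 CPM (24.9 normalized counts) and taking log2. One limma model (limma 3.58.1, R 4.3.3) of 4 group means used the 12 libraries and an intensity trend (degrees of freedom: 8 residual, 4.47 prior). Tests were two-sided, Benjamini-Hochberg adjustment ran over all genes of a comparison, and the threshold was 0.05. Relations between genes used Python 3.11.15 and scipy 1.17.1. The procedure was tested on simulated data.

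The 6 genes, the lists and the settings were chosen with earlier results of these data known. Named genes are the 6, their 3 nearest genes, and up to 4 passing members of each pathway list per tissue comparison, by size of change, except some that are not reported here. Other scalings, pseudocounts, filters, no trend, library weights, only the compared groups, a replicate block and leaving out each library were tried. Leaving out the libraries numbered 3 was added after the data were seen.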

Additional observations from a re-analysis of the deposited data

How the results depend on the processing

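The tissue calls of Pik3ip1, Phlpp1 and Pik3ap1 held under all 17 alternatives in each genotype, with log2 differences from -2.54 to -1.92 (WT) and -3.53 to -2.58 (KO) for Pik3ip1. Of 720 refitted values, 667 kept their direction and their side of the threshold or, for counts, stayed within 1.5 times. This tally is a weak measure of stability. Most of these values belong to the genotype comparisons and the interaction, where nothing was called at the start. The filters, the fit without a trend and the fit of only the compared groups also cannot change a log2 difference. Among the tissue calls, that of Inpp5d in WT was lost under 10 of 17 alternatives. Small genotype differences changed sign. In tumor Inpp4b was 0.01 with a common column total, 0.02 with quantile normalization, 0.23 with array quality weights and 0.17 without the libraries numbered 3. Inpp5d in tumor was -0.13 with weights, -0.04 with the replicate block and -0.1 without the libraries numbered 3, Phlpp1 was 0.07 with weights, and Pik3ap1 was -0.09 with the block. In TDLN Phlpp1 was 0.04 with weights and 0.11 without the libraries numbered 3. The interaction of Phlpp1 was 0.04 with a common column total and 0.03 with weights. With no filter, 6 genes were called between genotypes in tumor and 1 in the interaction. The cause was not tested.

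With 1 library left out in turn, the genes called between genotypes in tumor ranged from 0 to 10, the latter without WT tumor replicate 1. There Inpp5d ranged from -0.19 to 0.22, Inpp4b from -0.3 to 0.28, Phlpp1 from -0.48 to 0.22 and Pik3ap1 from -0.24 to 0.41. In TDLN Inpp4b ranged from -0.03 to 0.34 and Phlpp1 from -0.3 to 0.06. Between tissues Inpp4b in WT ranged from -0.01 to 0.46. In KO it ranged from -0.19 to 0.4, and the genes called from 3067, without KO TDLN replicate 1, to 4765, beside 4919. In the interaction Inpp5d ranged from -0.02 to 0.39, Inpp4b from -0.47 to 0.12 and Phlpp1 from -0.36 to 0.34.

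Same-numbered libraries of a genotype correlated in their deviations from group means by 0.01, 0.2 and -0.04 in WT. In KO the values were -0.02, 0.04 and 0. Pairs with different numbers spanned -0.18 to 0.18 for WT, and for KO -0.06 to 0.06. Deviations from means of 3 libraries cannot decide whether a number marks a pair. Xist marked number 3 in both tissues, whereas Ddx3y in number 3 was at 0 in TDLN but not in tumor. The main model did not take the numbers as pairs. The replicate block called 4076 genes between tissues in WT and 4647 in KO, and of the 8 member calls it ended that of Inpp5d in WT. Low values limit Pik3ip1 in tumor, at 40 to 190 estimated reads.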
